A study of Mus musculus with 6 samples.

Results

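Integrins and cadherins are the 2 large families of cell-surface receptors that fix a cell to its matrix and to its neighbours. The members were taken by gene symbol from the deposited table of all genes, as the alpha and beta integrin chains and the genes named Cdh with a number, and came to 50 of 20325 genes, 26 integrin chains and 24 cadherins. The symbol rule takes more than the classical cadherins: Cdh13 (T-cadherin, held in the membrane by a lipid anchor), Cdh16, Cdh17, Cdh23, Cdh26 and Cdh29 lie outside the type I and type II classes. RNA came from C3H10T1/2, an established mouse embryonic line with the character of mesenchymal progenitors, at passage 10 to 15, and 6 libraries formed 2 groups of 3. The control group was parental cells given a scramble siRNA (small interfering RNA), and the knockdown group was parental cells given siRNAs against Ring1a and Ring1b, the ubiquitin ligases of Polycomb repressive complex 1 (encoded by Ring1 and Rnf2). The labels name no batch. Nor do they say that replicates came from separate cultures, so the spread behind each p-value may be technical. Both ligases were targeted together in 1 line, so neither was depleted alone.

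An integrin is a pair of 1 alpha and 1 beta chain. The alpha chain largely sets the ligand (laminin, collagen, or proteins carrying an Arg-Gly-Asp motif such as fibronectin and vitronectin), the beta chain links to talin, kindlin and the actin skeleton, and Itgb1 is the common partner of most alpha chains. Classical cadherins bind the same or a related cadherin on the next cell and hold actin through beta- and alpha-catenin; N-cadherin (Cdh2) and cadherin-11 (Cdh11) are the ones known for joining mesenchymal cells.

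All values below are the authors' median-normalized read estimates, with replicates 1, 2 and 3 given in that order. A log2 fold change is the knockdown mean less the control mean of log2(value + 1). Estimated depth before normalization ran from 4580090 to 51801700 reads, and 3 reads, taken as the floor of detection, corresponded to between 0.777 (control replicate 1) and 12.8 (knockdown replicate 2). Knockdown replicate 2 stood apart: across genes its log2 values correlated with the other libraries at 0.821 to 0.867, against 0.944 to 0.993 for every other pair, and 20.7% of its total fell on genes of cytoplasmic ribosomal proteins, with 5.08 to 5.82% in the others. Results are therefore given with and without that library. Of the targeted genes, Rnf2 had 815, 829 and 799 in controls and 129, 76.5 and 152 in knockdowns (log2 fold change −2.82 with SE 0.28, adjusted p = 0.00946 by limma), and Ring1 had 336, 386 and 374 and 162, 268 and 186 (log2 fold change −0.86 with SE 0.23, adjusted p = 0.104 by limma), so Ring1 did not pass with all libraries and passed without knockdown replicate 2 (log2 fold change −1.06 with SE 0.10, adjusted p = 3.86e-06 by limma). The mesenchymal markers were high throughout, all 12 tested and none called by limma in either direction with all libraries (3 higher and 2 lower at an unadjusted p under 0.05). At that cut 1301 of all 12085 tested genes were higher and 1172 lower. Without knockdown replicate 2, 6 of the mesenchymal markers were called higher and 4 lower (50% and 33.3%, against 23.8% and 26.1% of all genes). Col1a1 was among the 6 (log2 fold change 0.65 with SE 0.11, adjusted p = 4.99e-04 by limma). So was Col1a2 (log2 fold change 0.28 with SE 0.068, adjusted p = 0.00526 by limma). Vim was among the 4 (log2 fold change −0.91 with SE 0.063, adjusted p = 3.53e-07 by limma). So was Pdgfra (log2 fold change −0.92 with SE 0.073, adjusted p = 1.78e-06 by limma). The named markers were picked after their values were seen. Summed markers of other cell types stayed low: leukocyte 36.1 to 39.1 in the controls and 48.6 to 149 in the knockdowns (Cd3e and Emr1 at 0), endothelial 100.2 to 115 and 111 to 167 (Tie1 and Cldn5 at 0), epithelial 5.01 to 10.8 and 13.6 to 21.3 (Cldn3 at 0), skeletal muscle 11.8 to 14.7 and 31.6 to 115 (Pax7 at 0), and platelet 4.66 to 7.52 and 4.26 to 8.50 (Gp6 at 0). Neural markers summed to 1386 to 1503 and 1326 to 1950, of which Tubb3 alone was called (higher) and Snap25 was at 0. Their part in the results below was not tested.

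A few members made up most of the adhesion receptor RNA of the control cells. Per kilobase of the longest protein-coding transcript, Itgb1 led at 3114 ± 55.8 (SD, n = 3), followed by Cdh11 at 1441 ± 15.6, Cdh2 at 1124 ± 7.14 and Itga5, the alpha chain of the fibronectin receptor, at 937 ± 34.3. Next in order per kilobase came Itgb5 at 874 ± 39.04, Itgav at 460 ± 13.4, Itgb3 at 267 ± 10.6 and Itga6 at 239.99 ± 15.3. Between neighbours in this order the 3 control values did not overlap. Below them Cdh13 (105 ± 5.60) and Cdh10 (96.3 ± 16.4) did overlap. Of the 50 members, 27 had a mean of at least 10 over the 6 libraries and were tested, 17 were above 0 with a lower mean (5 of them above the floor of 3 reads in no library), and 6 (Cdh7, Cdh8, Cdh9, Cdh16, Cdh20 and Itgax) were listed at 0 in every library. In 11 members, those 5 and the 6 at 0, no library rose above the floor. A low gene passes the filter most easily when 1 group is high, as Itgb6 and Cdh17 did through the knockdowns, while Itga2, Cdh19 and Cdh29, which were lower in the knockdowns, did not pass; the 27 are therefore not a neutral sample of the members. Among them, exons of Itga1, Itga4, Itga7, Itga8, Itga10, Itgav and Itgb4 overlap those of another gene in GENCODE M21, and reads of the overlap cannot be told apart here.

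**Figure D1:**
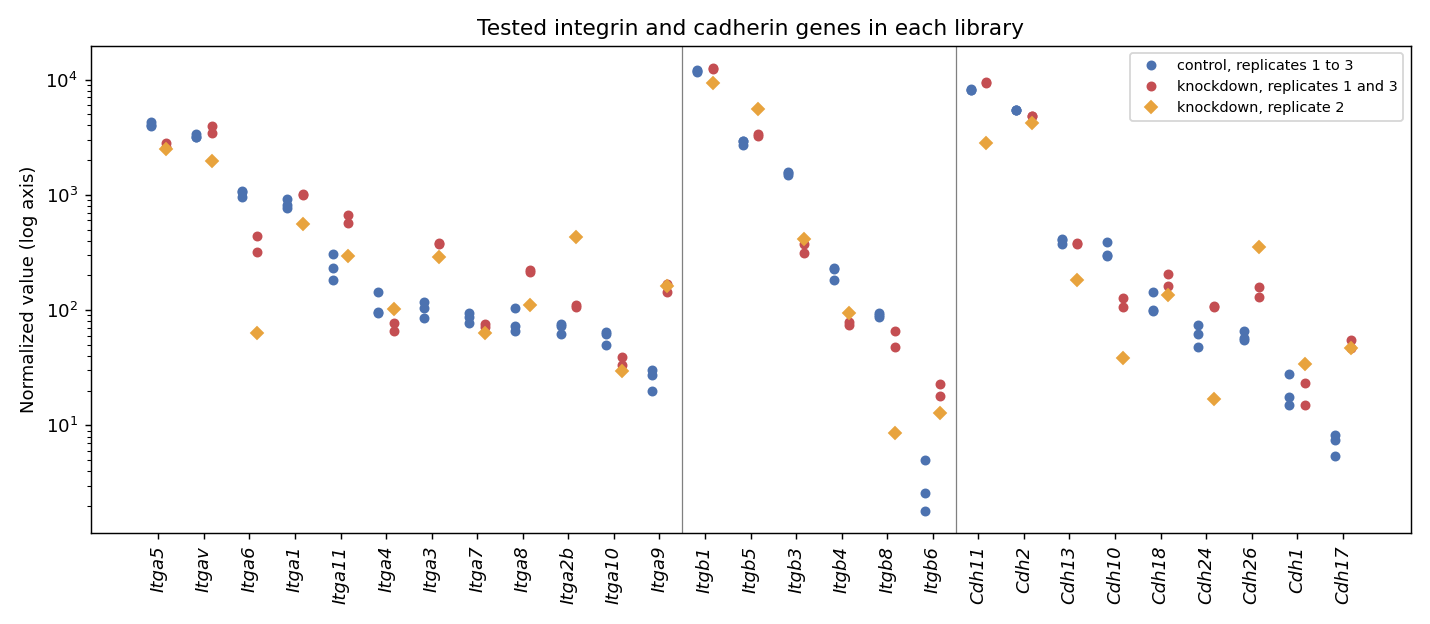
Normalized value (log axis) of the 27 tested members in each library, alpha chains, beta chains and cadherins from left to right, each ordered by control mean. Circles are control replicates (blue) and knockdown replicates 1 and 3 (red), and the orange diamond is knockdown replicate 2, which lies far from the other knockdowns for Itga6, Itga2b, Itgb8, Cdh11 and Cdh24.

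With all 6 libraries 4 of the 27 tested members rose and 2 fell. Itga3, Itga9, Itgb6 and Cdh17 rose between 3.41-fold and 6.998-fold, and Itgb3 and Itgb4 fell 4.20-fold and 2.60-fold. These are 14.8% and 7.41% of the tested members, where limma called 3.2% of all 12085 tested genes higher and 1.78% lower (Benjamini-Hochberg adjusted p under 0.05). Of the 4 that rose, Itgb6 and Cdh17 reached the filter through their knockdown values alone, so 14.8% is not a neutral share. The median log2 fold change was −0.067 in the members and 0.0057 in all genes. The 3 knockdowns lay above the 3 controls in 8 members and below them in 9, with 20.5% and 23.7% of all tested genes doing so. Without knockdown replicate 2, 14 of 28 tested members rose and 10 fell (50% and 35.7%), against 23.8% and 26.1% of all genes, and all 6 calls made with the full set were made again. Leaving out control replicate 1, 2 or 3 ended all 6 calls in limma, where 0 of all genes were called. At an unadjusted p under 0.05 by limma there were 7, 6 and 5 members higher and 5, 5 and 4 lower in turn. With all libraries 7 members were higher and 6 lower at that cut, as were 1301 and 1172 of all 12085 tested genes. All genes were not counted at that cut with a library left out, so those member counts have no background. Without knockdown replicate 1 limma called Itgb3 lower and no member higher (background 0.174% lower and 0.0579% higher; 5 members higher at an unadjusted p under 0.05). Without knockdown replicate 3 it called Itga9 higher and Itgb3 lower (0.306% and 0.472%). With every library scaled to the same total, limma called Cdh17 and Itga9 higher and Itgb3 and Itgb4 lower (1.52% and 0.977%).

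**Figure D2:**
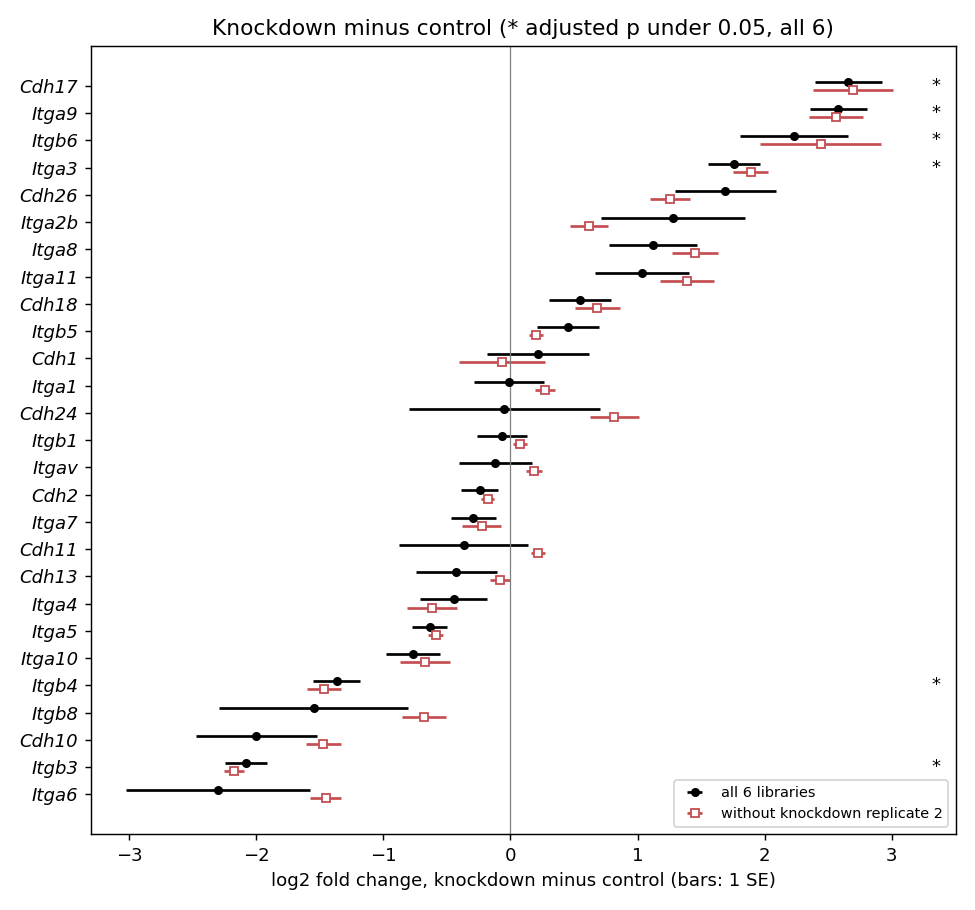
Log2 fold change of the 27 tested members, ordered by the value with all 6 libraries (black circles) and shown beside the value without knockdown replicate 2 (open red squares). Bars are 1 SE and stars mark the 6 members called with all 6 libraries, from Cdh17 at the top (2.66) to Itgb3 (−2.08).

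Among the laminin-binding alpha chains, Itga3 rose while Itga6 was lower in every knockdown library. Itga3, whose product pairs with beta1 as a receptor for basement membrane laminins, stood at 85.2, 118 and 104 in the controls and 378, 289 and 378 in the knockdowns. The groups were well separated, and the rise was 3.41-fold (log2 fold change 1.76 with SE 0.21, adjusted p = 0.0127 by limma). Itga3 lost its call in limma when any library other than knockdown replicate 2 was left out (adjusted p from 0.0631 to 0.103) and with total scaling (0.072). Itga6, which pairs with beta1 or beta4 and also binds laminin, stood at 959, 1082 and 1061 in the controls and 322, 63.8 and 441 in the knockdowns. All 3 knockdowns were below the controls, but knockdown replicate 2 was far below the other 2, and the difference did not pass (log2 fold change −2.30 with SE 0.72, adjusted p = 0.154 by limma). Without that library Itga6 fell 2.71-fold (log2 fold change −1.45 with SE 0.12, adjusted p = 1.93e-05 by limma). Itga7, a laminin receptor chain best known from muscle, had 77.4, 87.7 and 93.9 in the controls and 71.8, 63.8 and 75.3 in the knockdowns. These did not overlap, but it passed in neither fit (limma adjusted p = 0.393 with all libraries, 0.247 without knockdown replicate 2).

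The makeup of the laminin-binding group differed between conditions in every library. Taken per kilobase, so that the 3 chains can be set side by side, Itga6 made up 85.8%, 84.5% and 84.6% of the group in the controls and 43.8%, 16.4% and 51.4% in the knockdowns. Itga3 made up 6.76%, 8.15% and 7.34% in the controls and 45.7%, 65.98% and 39.1% in the knockdowns. The ratio of Itga6 to Itga3 per kilobase was 12.7, 10.4 and 11.5 in the controls and 0.959, 0.249 and 1.31 in the knockdowns. This ratio is formed within each library and does not depend on the scaling between libraries; it was chosen after its members' values were seen, and 3 against 3 libraries allow no exact permutation p below 0.1.

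**Figure D3:**
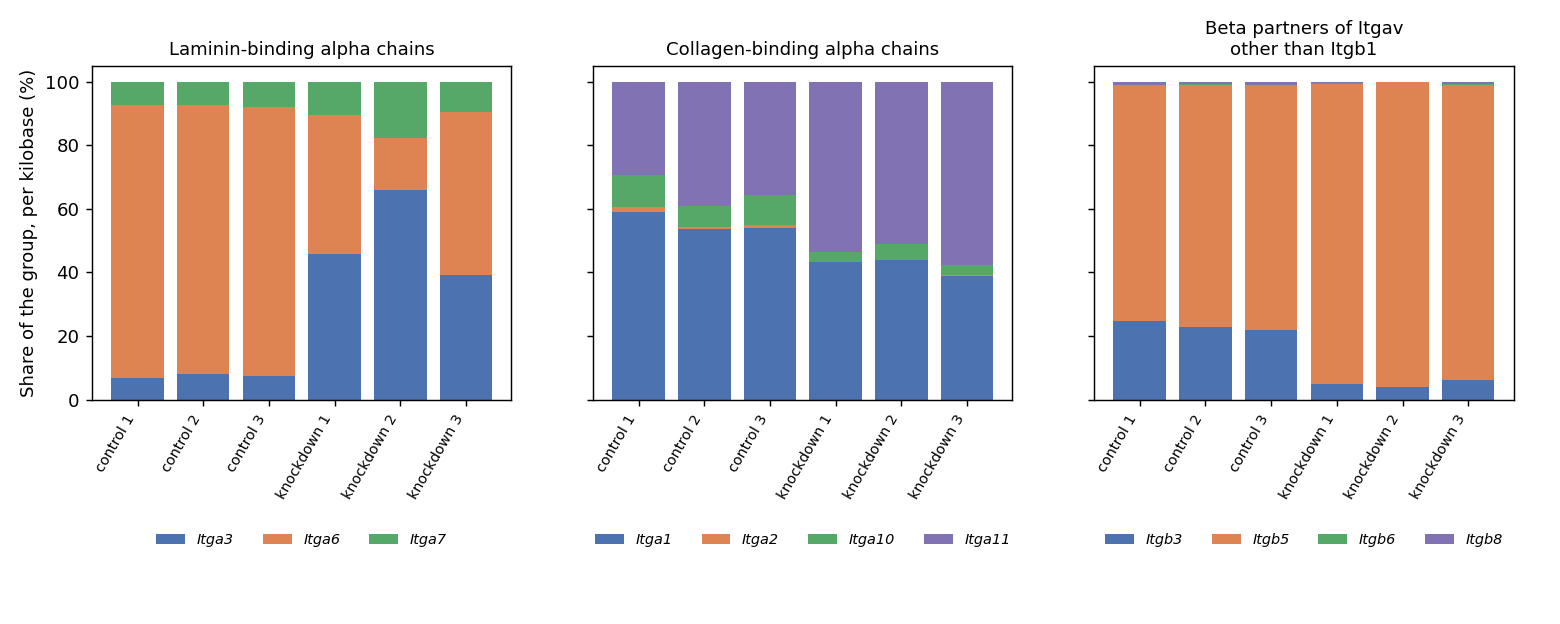
Share (%) of each chain per kilobase within 3 integrin groups, 1 stacked bar per library: laminin-binding alpha chains (left), collagen-binding alpha chains (middle) and the beta chains other than Itgb1 that pair with Itgav (right). Itga6 has a mean of 84.98% of the laminin-binding group in the controls and 37.2% in the knockdowns.

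Itgb3 fell and Itgb6 rose among the beta chains, while the common beta1 chain passed in neither fit. Itgb3, which pairs with Itgav as a vitronectin receptor, stood at 1592, 1561 and 1473 in the controls and 310.4, 417 and 373 in the knockdowns. The groups lay far apart and knockdown replicate 2 did not differ in direction (4.20-fold lower; log2 fold change −2.08 with SE 0.16, adjusted p = 0.00695 by limma). Without control replicate 1, 2 or 3 Itgb3 missed the threshold (adjusted p by limma 0.0659, 0.0602 and 0.0852). Itgb4, the partner of Itga6 in hemidesmosomes, stood at 225, 183 and 233 in the controls and 79.1, 93.5 and 73.9 in the knockdowns, 2.60-fold lower (log2 fold change −1.37 with SE 0.19, adjusted p = 0.0194 by limma). It lost its call when any library other than knockdown replicate 2 was left out (limma adjusted p from 0.0799 to 0.144), and with a correction for transcript length chosen after seeing the data (0.12). Itgb6, which with Itgav forms an epithelial receptor that activates latent TGF-beta, was near the floor in the controls at 2.59, 5.01 and 1.81 and stood at 18.1, 12.8 and 22.7 in the knockdowns. The groups did not overlap (log2 fold change 2.23 with SE 0.42, adjusted p = 0.0447 by limma), but the value of knockdown replicate 2 is that of 3 reads. Itgb6 lost its call without control replicate 1, 2 or 3 (adjusted p by limma 0.202, 0.0964 and 0.203) and with total scaling (0.108), and was under the filter without knockdown replicate 1 or 3.

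Itgb1 stood at 12114, 11834 and 11696 in the controls and 12564, 9335 and 12441 in the knockdowns, with knockdown replicate 2 below every control and the other 2 knockdowns slightly above them. It passed in neither fit (log2 fold change −0.067 with SE 0.19, adjusted p = 0.833 by limma; without knockdown replicate 2, log2 fold change 0.074 with SE 0.053, adjusted p = 0.27 by limma). Itgb5, a further vitronectin receptor chain, stood at 2720, 2939 and 2945 and 3366, 5531 and 3237, above the controls in every knockdown and highest in replicate 2, and passed only without it (log2 fold change 0.20 with SE 0.055, adjusted p = 0.00851 by limma; with all libraries log2 fold change 0.45 with SE 0.24, adjusted p = 0.348 by limma). Itgb8, which with Itgav also activates latent TGF-beta, stood at 90.7, 87.7 and 94.8 and 48.1, 8.50 and 66.1, with 2 reads in knockdown replicate 2, and fell without knockdown replicate 2 (log2 fold change −0.68 with SE 0.17, adjusted p = 0.00604 by limma). Among the 4 beta chains that pair with Itgav besides beta1, Itgb3 made up 24.7%, 22.9% and 21.9% per kilobase in the controls and 4.93%, 4.09% and 6.07% in the knockdowns. Itgb5 made up 74.3%, 76.1% and 77.1% and 94.2%, 95.7% and 92.8%. The groups did not overlap in either share, and Itgb6 stayed under 1% in every library despite its rise, at most 0.445%. The transcript of Itgb5 has 3282 nt and that of Itgb3 5784 nt, and knockdown replicate 2 was low for long transcripts (below). The part of length in its shares was not tested.

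Itga9 rose from a low level and its close relative Itga4 did not. Itga9, which with beta1 binds tenascin-C, osteopontin and VCAM-1, stood at 30.3, 20.05 and 27.1 in the controls and 169, 162 and 142 in the knockdowns. The 3 knockdown values were close together and all far above the controls (6.10-fold; log2 fold change 2.58 with SE 0.22, adjusted p = 0.00758 by limma). It was still called with total scaling and without knockdown replicate 2 or 3, and lost its call in limma without control replicate 1, 2 or 3 or knockdown replicate 1 (adjusted p from 0.0596 to 0.0852). Itga4 stood at 97.2, 145 and 94.1 and 66.01, 102 and 76.99, with overlapping groups (log2 fold change −0.45 with SE 0.27, adjusted p = 0.385 by limma), and without knockdown replicate 2 it fell (log2 fold change −0.62 with SE 0.19, adjusted p = 0.0202 by limma).

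The promoter windows of 3 of the 4 members that rose are printed for their CpG content, since Polycomb complexes are known for acting at CpG-rich promoters. They are from RefSeq (GRCm38.p6), 250 bases before to 50 after the annotated start, 5′ to 3′, with every CG dinucleotide in capitals; the window is the more upstream one where the table has 2. RefSeq windows matched 31 of the 50 members (62%), too few for a comparison over the members, so none was made; Cdh17 is among those not matched. The Itga3 window is at chr11:95076665-95076964, minus strand, the Itga9 window at chr9:118711442-118711741, plus strand and the Itgb6 window at chr2:60722554-60722853, minus strand.
Itga3: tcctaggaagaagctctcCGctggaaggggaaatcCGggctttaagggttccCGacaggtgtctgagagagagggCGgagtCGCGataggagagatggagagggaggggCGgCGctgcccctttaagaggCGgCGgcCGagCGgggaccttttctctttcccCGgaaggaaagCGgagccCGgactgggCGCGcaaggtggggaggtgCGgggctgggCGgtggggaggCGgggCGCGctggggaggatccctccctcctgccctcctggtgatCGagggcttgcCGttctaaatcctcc
Itga9: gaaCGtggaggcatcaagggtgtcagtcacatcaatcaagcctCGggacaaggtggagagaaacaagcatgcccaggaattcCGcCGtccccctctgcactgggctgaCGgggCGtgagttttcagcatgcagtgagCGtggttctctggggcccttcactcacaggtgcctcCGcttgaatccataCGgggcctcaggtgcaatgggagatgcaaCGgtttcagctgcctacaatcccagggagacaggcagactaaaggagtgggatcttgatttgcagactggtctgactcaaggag
Itgb6: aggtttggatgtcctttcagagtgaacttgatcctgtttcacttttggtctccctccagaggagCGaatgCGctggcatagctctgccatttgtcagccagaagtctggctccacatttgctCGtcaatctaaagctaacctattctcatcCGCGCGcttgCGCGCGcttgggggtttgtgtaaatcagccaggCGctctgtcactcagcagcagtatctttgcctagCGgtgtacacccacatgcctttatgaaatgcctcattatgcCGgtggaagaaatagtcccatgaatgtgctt
The motif searched was CG, which reads the same on both strands. Itga3 had 24 CG at an observed over expected ratio of 0.768 (GC content 66.7%), Itga9 had 10 at 0.420 (56.7%), and Itgb6 had 12 at 0.633 (50.3%). Over all 32851 promoter windows of 300 bases the median was 7 CG and a ratio of 0.384, 94.6% held at least 1 CG, and 35.8% reached a ratio of 0.6. The printed Itga3 and Itgb6 windows were above 0.6 and the Itga9 window below it. The second window listed, which is not printed, held 5 CG at a ratio of 0.244 for Itga3 and 3 at 0.280 for Itgb6, both below 0.6. For Itga9 only 1 window was listed, and it need not lie at the main start of the gene. These libraries do not say which start was used for any of the 3 genes, so the ratio at the start in use is not known. Windows of a few members not called with all libraries, picked by name from those matched, also varied. They are no comparison of members that rose with members that fell, and Itgb3 and Itgb4 are not among them. The ratio was 0.882 for Itga8, 0.465 for Itga11 and 0.303 for Cdh26, which had positive log2 fold changes. It was 0.504 for Itga5 and 0.193 for Cdh10, which had negative ones. Whether CpG content has a part in the changes was not tested. No binding or methylation was measured in these libraries.

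Of the collagen-binding alpha chains, Itga11 held a larger share in the knockdowns and Itga1 a smaller one. Itga11, a collagen receptor of fibroblasts and other mesenchymal cells, stood at 182, 306 and 231 in the controls and 572, 293 and 664 in the knockdowns; knockdown replicate 2 fell inside the control range and the other 2 lay well above it. It did not pass with all libraries (log2 fold change 1.04 with SE 0.37, adjusted p = 0.199 by limma) and rose 2.58-fold without knockdown replicate 2 (log2 fold change 1.39 with SE 0.21, adjusted p = 0.00205 by limma). Itga1 stood at 809.97, 925 and 771 and 1023, 557 and 989, low in knockdown replicate 2 and above the controls in the other 2 (log2 fold change −0.011 with SE 0.27, adjusted p = 0.982 by limma), and rose without replicate 2 (log2 fold change 0.27 with SE 0.076, adjusted p = 0.0105 by limma). Itga10, a collagen receptor known from chondrocytes, stood at 64.2, 50.1 and 61.4 and 33.4, 29.8 and 39.1, with every knockdown below every control, and passed only without knockdown replicate 2 (log2 fold change −0.68 with SE 0.20, adjusted p = 0.0135 by limma; with all libraries log2 fold change −0.77 with SE 0.21, adjusted p = 0.116 by limma). Per kilobase, Itga11 made up 29.3%, 39.2% and 35.8% of this group in the controls and 53.5%, 50.99% and 57.6% in the knockdowns, so its share was higher in all 3 knockdowns, replicate 2 included. Itga1 made up 59.1%, 53.8% and 53.996% and 43.3%, 43.9% and 38.9%. The transcript of Itga1 has 10967 nt and that of Itga11 4969 nt, and knockdown replicate 2 was low for long transcripts (below). The part of length in the shares of that library was not tested. Itga2, the remaining collagen receptor chain, was too low to be tested, at 12.7, 7.52 and 8.13 and 2.26, 0 and 3.55, and was at 0 in knockdown replicate 2, where 3 reads correspond to 12.8.

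The alpha chains that recognise Arg-Gly-Asp proteins differed in direction, and none passed with all libraries. Itga5, the fibronectin receptor chain, stood at 3974, 4069 and 4269 in the controls and 2622, 2483 and 2839 in the knockdowns. The groups were clearly separated and all 3 knockdowns close together, yet the 1.55-fold lower mean missed the threshold (log2 fold change −0.63 with SE 0.14, adjusted p = 0.0619 by limma), and it passed without knockdown replicate 2 (log2 fold change −0.59 with SE 0.056, adjusted p = 4.64e-06 by limma). Itgav stood at 3195, 3350.2 and 3179 and 3441, 1947 and 3962, low in knockdown replicate 2 alone, with a fold change of opposite sign when that library was left out (log2 fold change −0.12 with SE 0.29, adjusted p = 0.797 by limma with all libraries; log2 fold change 0.19 with SE 0.063, adjusted p = 0.0271 by limma without). Itga8, a receptor chain for nephronectin, stood at 104, 72.5 and 65.9 and 223, 111 and 214. Each knockdown exceeded each control, replicate 2 by little (log2 fold change 1.12 with SE 0.35, adjusted p = 0.148 by limma), and Itga8 rose 2.70-fold without it (log2 fold change 1.45 with SE 0.18, adjusted p = 5.17e-05 by limma). Itga2b, the platelet fibrinogen receptor chain, stood at 75.6, 62.6 and 73.2 and 109.6, 429 and 107, above the controls in every knockdown and by far the most in replicate 2. It did not pass with all libraries (log2 fold change 1.28 with SE 0.57, adjusted p = 0.279 by limma) and rose without that one (log2 fold change 0.62 with SE 0.15, adjusted p = 0.00499 by limma). The platelet marker Gp6 was at 0 and its usual partner Itgb3 was lower in the knockdowns.

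Neither of the 2 main cadherins passed with all libraries, and the direction of Cdh11 depended on 1 library. Cdh2 stood at 5403, 5451 and 5471 in the controls and 4826, 4214 and 4781 in the knockdowns. Its knockdown values were all below the control values by a small margin (1.18-fold lower; log2 fold change −0.24 with SE 0.15, adjusted p = 0.385 by limma), and it passed without knockdown replicate 2 (log2 fold change −0.18 with SE 0.049, adjusted p = 0.00953 by limma). Cdh11 stood at 8148, 8219.6 and 8044 in the controls and 9359, 2799 and 9556 in the knockdowns. Knockdowns 1 and 3 were above the controls and knockdown 2 far below them, so that Cdh11 did not pass with all libraries (log2 fold change −0.37 with SE 0.50, adjusted p = 0.649 by limma) and rose without it (log2 fold change 0.22 with SE 0.051, adjusted p = 0.00408 by limma). The ratio of Cdh11 to Cdh2 per kilobase was 1.29, 1.29 and 1.26 in the controls and 1.66, 0.570 and 1.71 in the knockdowns, higher in 2 knockdowns and lower in replicate 2. In the controls these 2 genes made up a mean of 50.3% and 39.2% of all cadherin RNA per kilobase.

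Cdh17 was the 1 cadherin called with all libraries. Cdh17, the liver-intestine cadherin, stood at 8.29, 7.52 and 5.42 in the controls and 54.8, 46.8 and 46.9 in the knockdowns, which were close to each other and all above the controls (6.998-fold; log2 fold change 2.66 with SE 0.26, adjusted p = 0.00918 by limma). The value of control replicate 2 is that of 3 reads, the floor. With a control mean of 7.07, Cdh17 reached the filter of 10 through its knockdown values alone. Cdh17 lost its call without control replicate 1, 2 or 3 or knockdown replicate 1 or 3 (limma adjusted p from 0.0526 to 0.0852). Cdh17 lies in the class outside the classical cadherins, as does Cdh26, which stood at 65.3, 55.1 and 57.8 and 157, 353 and 130.04. Cdh26 was higher in every knockdown, most in replicate 2, and passed only without that library (log2 fold change 1.26 with SE 0.16, adjusted p = 4.07e-05 by limma; with all libraries log2 fold change 1.69 with SE 0.40, adjusted p = 0.0815 by limma). The 10 epithelial markers summed to 5.01 to 10.8 in the controls and 13.6 to 21.3 in the knockdowns. These sums did not overlap, but none of the 10 markers reached the filter, and 1 (Cldn3) was at 0 throughout. Krt19, the highest of them in the knockdowns, had 3.11, 0 and 6.32 in controls and 11.3, 12.8 and 13.5 in knockdowns. Its value in knockdown replicate 2 is no higher than the floor. The sums thus rest on few reads, and the part of these markers in the cadherin values was not tested.

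The type II cadherins other than Cdh11 were less abundant and differed in direction. Cdh10, best known from brain, stood at 392, 298 and 294 in the controls and 107, 38.3 and 127 in the knockdowns. Every knockdown was below every control, replicate 2 the lowest (3.61-fold lower; log2 fold change −1.999 with SE 0.48, adjusted p = 0.0836 by limma), and Cdh10 fell 2.80-fold without that library (log2 fold change −1.47 with SE 0.14, adjusted p = 5.75e-06 by limma). Cdh18 stood at 144, 100.2 and 98.5 and 204, 136 and 161, with the groups overlapping through knockdown replicate 2, and rose without it (log2 fold change 0.68 with SE 0.18, adjusted p = 0.00832 by limma). Cdh24 stood at 62.4, 47.6 and 74.97 and 106, 17.01 and 109, raised in knockdowns 1 and 3 and lowest of all in knockdown 2, with a value of 4 reads there (log2 fold change −0.047 with SE 0.75, adjusted p = 0.97 by limma; without that library log2 fold change 0.82 with SE 0.19, adjusted p = 0.00386 by limma). Cdh13 stood at 373, 413 and 405 and 379, 183 and 372 and passed in neither fit (limma adjusted p = 0.46 and 0.419). E-cadherin (Cdh1), the epithelial cadherin, stayed low at 17.6, 15.03 and 28.002 and 23.2, 34.01 and 14.9 and overlapped between groups (log2 fold change 0.21 with SE 0.40, adjusted p = 0.743 by limma; without knockdown replicate 2, log2 fold change −0.065 with SE 0.34, adjusted p = 0.889 by limma).

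Among the members too low to test, 4 of the 17 above 0 were lower in every knockdown library than in any control and 2 were higher in every one. Of all 4422 untested genes above 0, 3.48% and 10.3% were so. Cdh19 stood at 17.1, 12.5 and 15.4 in the controls and 1.13, 0 and 3.55 in the knockdowns, and Itga2 is given above. R-cadherin (Cdh4) stood at 3.11, 5.01 and 1.81 and 1.70, 0 and 1.42, at or under the floor of 3 reads in every library but control 1. Cdh29 stood at 21.8, 12.98 and 19.8 and 2.48, 0 and 1.55, and passed the filter and fell without knockdown replicate 2 (log2 fold change −2.66 with SE 0.43, adjusted p = 2.86e-04 by limma). RefSeq lists Cdh29 as an older name of Cdhr4, which has a row of its own in the table with values of 17.1, 25.1 and 13.6 and 1.13, 17.01 and 0.711, so reads of 1 locus may be split between the 2 rows. The 2 that were higher were Cdh6 and Cdh23, Cdh6 at 1.81, 0 and 0.903 and 6.79, 4.25 and 6.40 and Cdh23 at 5.18, 5.01 and 3.61 and 7.92, 12.8 and 8.53. Both lay at or under the floor of 3 reads in knockdown replicate 2. The leukocyte chains Itgad, Itgae, Itgal, Itgam, Itgax and Itgb2 never exceeded 17.01 in any library, and Itgb7 reached at most 12.8. VE-cadherin (Cdh5), which defines endothelium, was at 0 in all 3 controls and at 0.565, 4.25 and 0 in the knockdowns, under the floor in each.

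The authors' deposited table of differential genes holds 5 of the 50 members, 2 with a higher and 3 with a lower value in the knockdowns. The authors' deposited table lists 323 of the 20325 genes, 1.14% higher and 0.453% lower. It gives a knockdown over control ratio of 7.09 for Cdh17, 6.19 for Itga9, 0.241 for Itgb3, 0.207 for Itga2 and 0.0747 for Cdh29 (the authors' deposited table). The smallest change in the authors' deposited table was 4.01-fold higher and 4.13-fold lower, so Itga3 (3.41-fold) and Itgb4 (2.60-fold lower), called here, lie outside its range of sizes. Itgb6 (5.70-fold) is not in it either, and Itga2 and Cdh29 are below the filter used here.

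Knockdown replicate 2 differed from the other knockdowns in a way that followed transcript length, and the members' transcripts are long. The difference of this library from the mean of knockdown replicates 1 and 3 had a median of 1.53 on the log2 scale in the shortest of 8 length bins of all tested genes (median 1129 nt) and −1.11 in the longest (7808 nt). The tested members had a median length of 4806 nt, against 3204 nt for all tested genes, and a median difference of −0.39, against −0.10. Of the 27, 19 were lower in knockdown replicate 2, as were 53.4% of all tested genes with a length, and 9 differed by more than 1 log2 unit in either direction, as did 41.8%. The members that differed most were Itgb8 (−2.59), Cdh24 (−2.59) and Itga6 (−2.54) below, and Itga2b (1.98) above. The part of length in these differences was not tested gene by gene. With a correction for transcript length, chosen after seeing the data, limma called Cdh26, Itga8 and Itga11 higher besides the 4 members above (6.77% of all genes were called higher), and called Itgb3 and Cdh10 lower but not Itgb4 (4.42% of all genes lower).

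**Figure D4:**
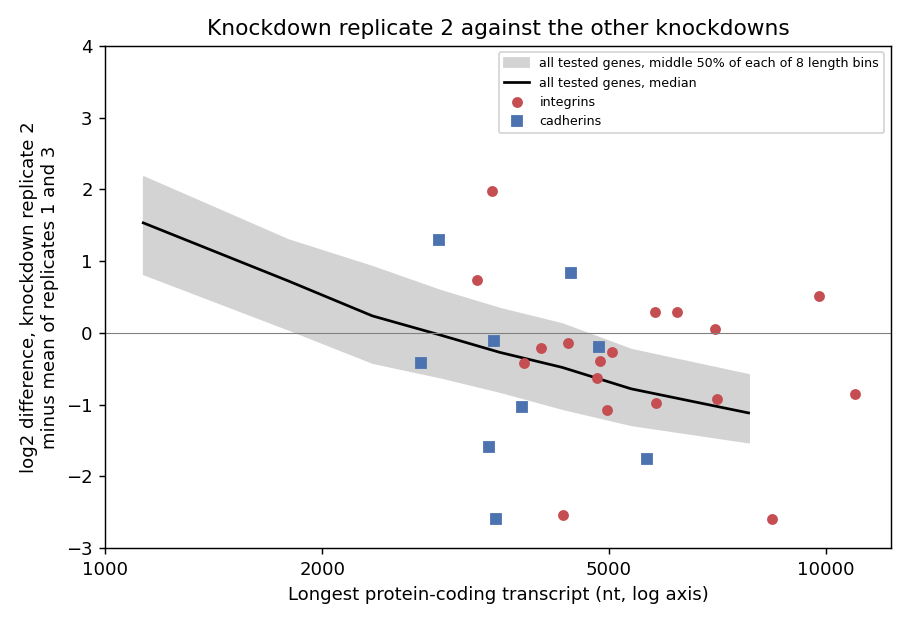
Log2 difference of knockdown replicate 2 from the mean of replicates 1 and 3 against the length of the longest protein-coding transcript (log axis). The black line and grey band are the median and the middle 50% of all tested genes in 8 length bins, falling from 1.53 to −1.11, and red circles and blue squares are the tested integrins and cadherins, of which 19 of 27 lie below 0.

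With all libraries 3 ligand genes and 4 adaptor genes of the integrins passed, and no catenin gene. Of 42 integrin ligand genes 34 were tested, and 2 rose and 1 fell in limma (5.88% and 2.94%, against 3.2% and 1.78% of all genes; median log2 fold change 0.032). Lama5, a laminin alpha chain, stood at 68.4, 158 and 124 in the controls and 554, 332 and 771 in the knockdowns (4.73-fold; log2 fold change 2.23 with SE 0.44, adjusted p = 0.0486 by limma). Lama1, the embryonic laminin alpha chain, stood at 3.88, 7.52 and 8.13 and 20.4, 25.5 and 29.8 (log2 fold change 1.84 with SE 0.36, adjusted p = 0.0467 by limma). Edil3, a secreted ligand of Itgav integrins, fell from 1747, 1396 and 1411 to 472, 196 and 423 (log2 fold change −2.15 with SE 0.36, adjusted p = 0.0336 by limma). With total scaling limma called none of these 3, nor when any library other than knockdown replicate 2 was left out (3 ligand genes higher and 1 to 4 lower at an unadjusted p under 0.05 in each such fit). All genes were not counted at that unadjusted cut in those fits. Lama1 and Lama5 were also not called with no filter or with a mean of at least 50, under both of which Edil3 was, and Lama1 passed the filter of 10 through its knockdown values. Fibronectin (Fn1), the main ligand of Itga5, stood at 117352, 144030 and 140145 and 142548, 51565 and 172774 and did not pass (log2 fold change −0.30 with SE 0.50, adjusted p = 0.712 by limma); it was named after its values were seen. Without knockdown replicate 2, 15 ligand genes rose and 8 fell (44.1% and 23.5% of 34, against 23.8% and 26.1% of all genes).

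Of 44 adaptors that link integrins to actin and signalling, 40 were tested, and 3 rose and 1 fell in limma (7.5% and 2.5%, against 3.2% and 1.78% of all genes; median log2 fold change −0.050). Zyx, encoding zyxin of focal adhesions and stress fibres, stood at 3604, 4236 and 4243 in the controls and 9424, 10695 and 9377 in the knockdowns (2.44-fold; log2 fold change 1.29 with SE 0.16, adjusted p = 0.0154 by limma). Lims2, encoding a partner of integrin-linked kinase, stood at 31.3, 32.6 and 41.6 and 97.8, 106 and 83.1 (log2 fold change 1.42 with SE 0.21, adjusted p = 0.0223 by limma). Ptk2b, a kinase related to focal adhesion kinase, stood at 30.8, 27.6 and 31.6 and 87.6, 55.3 and 76.7 (log2 fold change 1.24 with SE 0.24, adjusted p = 0.046 by limma). Parvb, encoding beta-parvin, fell from 853, 899.6 and 915 to 431, 468 and 474 (log2 fold change −0.96 with SE 0.14, adjusted p = 0.0201 by limma). In all 4, named because limma called them, the groups did not overlap. Of all tested genes, 20.5% were so on the higher side and 23.7% on the lower. With total scaling Zyx alone of the 4 was called, Ptk2b was not called with no filter or with a mean of at least 50, and limma called no adaptor when any library other than knockdown replicate 2 was left out (4 or 5 higher and 1 to 5 lower at an unadjusted p under 0.05). In those fits all genes were not counted at that unadjusted cut. Without knockdown replicate 2, 14 of 39 tested adaptors rose and 11 fell (35.9% and 28.2%, against 23.8% and 26.1% of all genes).

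None of the 17 tested catenins and junction partners and none of the 15 tested genes of the wider cadherin superfamily (Fat, Dchs, Celsr, protocadherins, calsyntenins) was called by limma with all libraries, where 3.2% of all genes were called higher and 1.78% lower. At an unadjusted p under 0.05 there were 5 higher and 1 lower in the first list and 1 higher and 0 lower in the second. Of all 12085 tested genes 1301 were higher and 1172 lower at that cut. The most abundant catenin genes, Ctnnb1 (beta-catenin) and Ctnnd1 (p120-catenin), stood at 13399, 14147 and 14450 in the controls and 10185, 4973 and 10584 in the knockdowns, and at 12681, 13551 and 12572 and 12834, 4994 and 14771. In both, knockdown replicate 2 was much lower than the rest. Ctnnb1 fell without it (log2 fold change −0.43 with SE 0.057, adjusted p = 6.54e-05 by limma), and Ctnnd1 did not pass (limma adjusted p = 0.294). Fat1 and Fat4, atypical cadherins and the most abundant of the second list, stood at 11110, 12195 and 10998 and 11980, 3218 and 15141, and at 6371, 6407 and 5727 and 5531, 1305 and 6155, again lowest in knockdown replicate 2. Without that library 7 of the 17 catenins and partners rose and 4 fell (41.2% and 23.5%), and 5 of the 15 superfamily genes rose and 2 fell (33.3% and 13.3%). In that fit 23.8% of all genes were called higher and 26.1% lower.

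**Figure D5:**
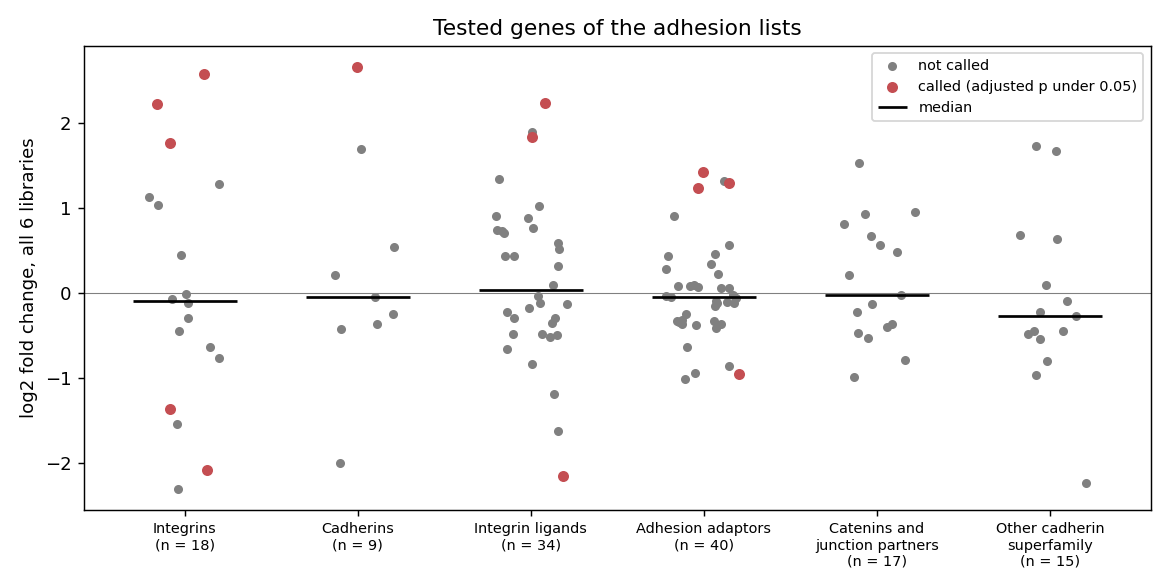
Log2 fold change with all 6 libraries of the tested integrins, cadherins and the 4 adhesion lists, 1 point per gene, with the median as a black bar and genes called at an adjusted p under 0.05 in red. The medians lie between −0.27 and 0.032, and called genes stand on both sides of 0 for integrins, ligands and adaptors.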

How the data were processed

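RNA from 6 libraries was sequenced after Trizol extraction and Illumina TruSeq preparation, per the labels. The submitters' processing notes name RSEM 1.2.12, Bowtie 1.0.0 and build mm9. Annotation and strand setting are unstated, so reads of genes that overlap, on either strand, cannot be told apart. The authors deposited a normalized signal per gene (median normalization, per the file name) and a list of differential genes with a ratio. Its low values step by 1 read, which gave the depth and the floors (counting error only), but 88.3 to 90.5% of the values of at most 20 reads lay within 0.1 read of a whole number, so whole reads were not recovered and no count model was used.

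Genes with a mean of at least 10 were fitted by limma 3.58.1 (R 4.3.3) on log2 of the value plus 1. The fit used trend and robust options and was two-sided, with Benjamini-Hochberg over all genes and a threshold of 0.05. It was tested on simulated data in which every library had the spread of the controls. Those data held no outlying library, length effect or difference in depth, so the test does not cover a library like knockdown replicate 2. Alternatives were other pseudocounts, filters and scalings, library weights, a replicate block, each library left out, and a correction for transcript length that was chosen after seeing the data. Lengths are those of the longest protein-coding GENCODE M21 transcript. Described in full were members called, those called without knockdown replicate 2 at 2-fold or more with a mean of at least 50, and those with a mean of at least 1000; from each list, up to 4 called genes or the 2 most abundant. The members and lists were chosen with earlier results of these data known.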

Additional observations from a re-analysis of the deposited data

How the results depend on the processing

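With the pseudocounts 0.5 and 5, no filter, upper-quartile scaling or no trend and robust options, 4 members were called higher (2.64 to 3.64% of all genes) and 2 (3 with no filter) lower (1.18 to 1.99%). The count called higher was 2 with a mean of at least 50 (23 members tested; 2.58% of all genes) and 2 with total scaling, under which all tested genes had a median of −0.14. It was 15 with library weights and 7 with the length correction added after seeing the data. The count called lower was 10 with library weights (34.9% of all genes were then called higher and 38% lower). With a library left out the counts ran from 0 to 14 higher and from 0 to 10 lower, the highest without knockdown replicate 2. With the replicate block limma called 0 higher and 0 lower (6 and 6 at an unadjusted p under 0.05), and 0 of all genes. All genes were not counted at that unadjusted cut in this fit. Deviations of same-numbered libraries from their group means had correlations of 0.17, −0.05 and −0.05 for replicates 1, 2 and 3. Those of differently numbered libraries ran from −0.17 to 0.11. The knockdown mean includes the outlying replicate 2, so these values cannot decide whether the numbers mark pairs. The main fit took no pairing. If the numbers do mark pairs, the fit with the block applies, in which no member was called. Cdh11 changed sign with library weights (0.20) and without knockdown replicate 2 (0.22). Itgav did so too (0.095 and 0.19), and with the length correction (0.26), as did Itgb1 (0.082, 0.074 and 0.037). With a library left out, Cdh11 ran from −0.67 to 0.22, Itgav from −0.32 to 0.19 and Itgb1 from −0.14 to 0.074. The cause was not tested. Depth limits Itgb6, Itgb8, Cdh24 and the untested members, which have 4 reads or fewer in knockdown replicate 2. It also limits Cdh17, which has 3 reads in control replicate 2.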

Other observations

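Some members that lie next to each other in the genome differed widely in level, and others were alike in being near 0. In RefSeq (GRCm38.p6), taken for gene order alone, Cdh8, Cdh11 and Cdh5 are consecutive protein-coding genes. Cdh11 had a control mean of 8137, and Cdh8 and Cdh5 were at 0 in every control. Likewise Cdh10, with a control mean of 328, lies between Cdh9 and Cdh12, both at 0 in every control, and Itga1 (835) lies beside Itga2 (9.45). In the knockdowns Cdh8 and Cdh9 were at 0 in every library and Cdh12 reached 0.565 in 1 library, the value of 1 read. As control means, Cdh6 (0.905) beside Cdh9 (0) and Itgam (0.392) and Itgad (0.086) on either side of Itgax (0) were alike in being near 0. In the remaining pairs, Cdh7 (0) beside Cdh19 (14.99) and Cdh3 (0.646) beside Cdh1 (20.2), the first gene was near 0 and the second low but detected.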
